A study of Bos taurus with 6 samples.

Results

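The values of 10 genes of spermatogonial stem cells and of GDNF signalling were followed in libraries from the testes of immature and mature cattle. The genes were the rows of the deposited table of genes whose symbol was GDNF, GFRA1, RET, ETV5, ID4, ZBTB16, NANOS2, NANOS3, LIN28B or UCHL1, and these were 10 of the 47249 genes in the table. Spermatogonial stem cells lie on the wall of the seminiferous tubule, renew themselves and give rise to all later germ cells. In rodents, GDNF secreted by Sertoli and other somatic cells of the tubule binds the co-receptor GFRA1 and the tyrosine kinase RET on these cells and keeps them renewing. Transcription factors such as ETV5, ID4 and ZBTB16 and RNA-binding proteins such as NANOS2 are known for holding the cells in an undifferentiated state.

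The study compared 3 physically healthy calves aged 3 months with 3 physically healthy, andrologically mature bulls aged 3 years, all of the Wandong breed. It describes no treatment of the animals. There was 1 library of ribosome-depleted total testis RNA per animal. For every gene and transcript the authors deposited FPKM, in which the fragments of a transcript are divided by its length and by the depth of the library. Because of the division by length, levels of different genes can be set side by side. No counts were in the tables, so the number of fragments behind a single value is not known from them, and no counting interval was computed.

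The library labelled calf 3 stood apart from the other 5, and its values put its label as testis in doubt. All 13 genes of the lists for neurons and glia were highest in it. The glia list summed to 13484 FPKM in this library, to 4.71 and 5.35 in the other two calves and to 8.51 to 15.5 in the bulls. The neuron list summed to 638 there, to 15.2 and 9.37 in the other two calves and to 4.58 to 5.99 in the bulls. The Sertoli cell genes WT1, GATA4 and FSHR and the germ cell gene DAZL were listed at 0 there, and the list of Leydig cell genes summed to 0.502, where the other two calves had 1406 and 1141. Of the 872 FPKM of the 10 Sertoli cell genes in calf 3, CLDN11 (429) and CLU (423), which are not specific to Sertoli cells, made up most. Not all Sertoli cell genes were low there: SOX9 was at 13.7, against 21.9 and 25.6 in calf 1 and calf 2. INHBB was at 4.72, above the 1.35 and 3.42 of calf 1 and calf 2. Of the 10 Sertoli cell genes, 6 were lowest in calf 3. What calf 3 holds cannot be told from the labels, so means and tests over 3 calves include a library of doubtful origin, and results below are given with and without it.

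**Figure D1:**
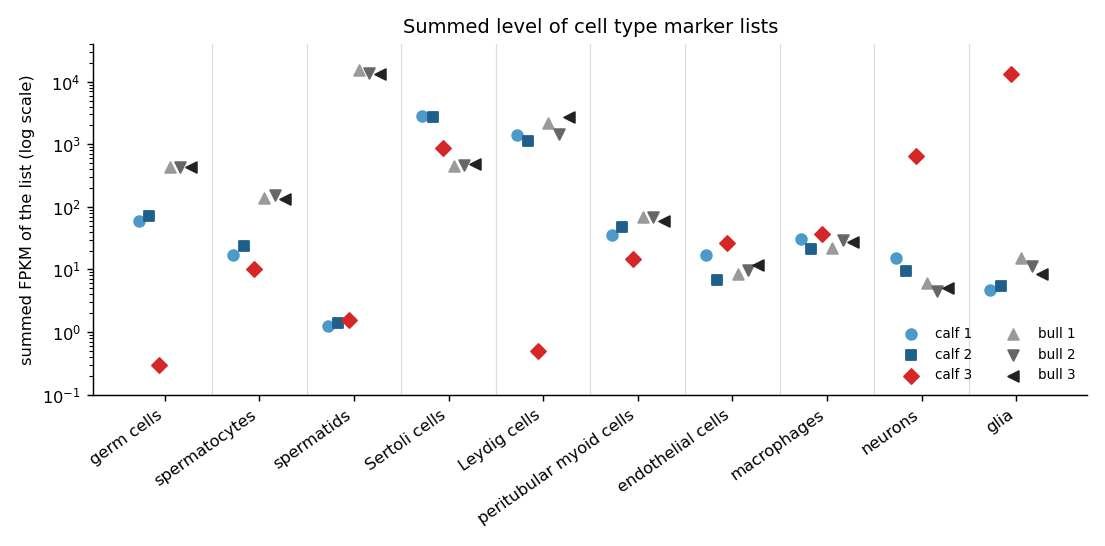
Summed FPKM (log scale) of 10 lists of cell type marker genes, 1 point per library, with calf 3 in red. Calf 3 is far above the other libraries for neurons and glia and far below calf 1 and calf 2 for germ cells and Leydig cells, and the bulls lie above the calves for spermatocytes and spermatids.

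Comparing bulls with calves asks how these genes differ between a testis before and after spermatogenesis is established. Values were compared as log2(FPKM + 1), which draws fold changes of low genes toward 0, among the 18115 genes that reached an FPKM of 1 in at least 3 libraries. Calls required an adjusted p below 0.05 (limma, Benjamini-Hochberg over all 18115 genes) together with a difference between the group means, taken as bulls minus calves, that reached 1 in size on the log2 scale. Of the 10 genes, 8 entered this fit, and GDNF and NANOS2 were too low for it. NANOS3 and LIN28B were called higher and RET and ZBTB16 lower in bulls. Among all genes tested, 45.3% were called, 35.7% higher and 9.61% lower, so 4 calls among the 8 genes in the fit were near the share of all genes. Without calf 3, NANOS3 and LIN28B were called higher and, of these genes, only ZBTB16 lower, where 51.5% of all genes were called, 37.9% higher and 13.6% lower. A filter on low values passes a gene more easily when 1 group is high, so the 8 genes in the fit are not a neutral sample of the 10. The same holds for every list below. LHX1, ZBTB32, TSPAN8, SPO11, all 6 spermatid marker genes and the transcript NANOS3-AS1 reached 1 FPKM in bulls only. FGFR3 and the transcripts GFRA1-201 and RET-201 reached it in calves only. A call of any of these could go in 1 direction only.

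The groups did not overlap for 7 of the 10 genes, against 67.4% of all genes tested (46.1% with bulls above and 21.3% with bulls below), with bulls below calves for GFRA1, RET, ETV5, ZBTB16 and UCHL1 and above calves for NANOS3 and LIN28B. Without calf 3 they did not overlap for 9 genes, GDNF and NANOS2 added on the lower side, against 84.4% of all genes tested (53.5% above and 30.9% below). GDNF and NANOS2 count among the 10 genes but failed the filter that the genes behind these shares passed, so the sets are not alike. Calf 3 was the highest library for 5 of the 10 (GFRA1, RET, ID4, ZBTB16 and UCHL1) and the lowest for 4 (GDNF, NANOS2, NANOS3 and LIN28B), where 21.9% and 35.3% of all genes tested had it at these ends. The median log2 fold change of all genes tested was 0.43 with all libraries and 0.43 without calf 3, and −0.26 and −0.24 after quantile normalization, so the direction of small changes depends on how the libraries are scaled. Relative to the median of all genes, the changes were −2.36 for ZBTB16, −1.75 for UCHL1, −1.58 for RET, −1.41 for GFRA1, −1.23 for ETV5, −0.88 for ID4, 1.16 for LIN28B and 2.01 for NANOS3. Without calf 3, UCHL1 came to −0.81, ID4 to −0.16 and LIN28B to 0.64 relative to that median, and the other 5 to between −2.21 (ZBTB16) and 1.65 (NANOS3). After quantile normalization, GFRA1, RET, ETV5 and ZBTB16 were called lower and NANOS3 higher, beside 46.2% of all genes called, 21.1% higher and 25.1% lower. Without calf 3 as well, UCHL1 was added on the lower side (−1.13, adjusted p = 0.000124, limma), beside 51.5% called, 22.4% higher and 29.1% lower. In testis tissue, fewer cells of a type and less RNA per cell cannot be told apart.

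**Figure D2:**
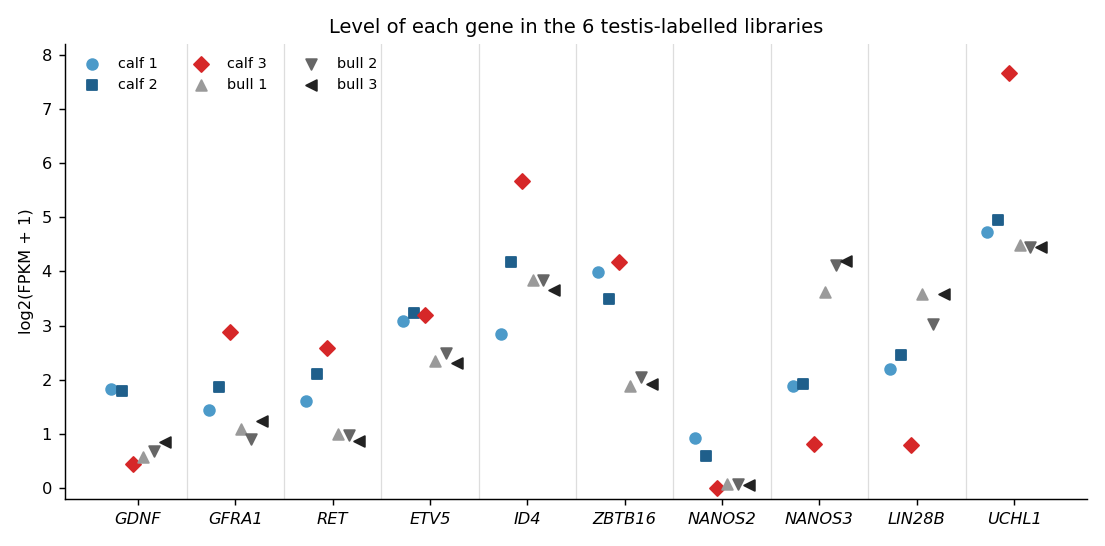
Level of each of the 10 genes as log2(FPKM + 1), 1 point per library. The 3 bulls lie close together for most genes, calf 3 (red) is the highest point for UCHL1, ID4, GFRA1, RET and ZBTB16, and the bulls are above all calves only for NANOS3 and LIN28B.

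GDNF, the ligand (ENSBTAG00000005176, chromosome 20, 36613471 to 36642530), was measured at 2.54, 2.46 and 0.369 FPKM in the calves and at 0.494, 0.599 and 0.813 in the bulls, with animals 1 to 3 of each group in order here and below. Calf 1 and calf 2 were both above every bull, whereas calf 3 was the lowest library. The mean of calf 1 and calf 2 was 2.499 ± 0.0566 (SD, n = 2), 3.93-fold the mean of 0.635 ± 0.163 (SD, n = 3) in bulls. Over all 6 libraries, the exact permutation test (two-sided, 20 labelings, smallest possible p 0.1) gave p = 0.4. When all genes above 0 in a library were fitted, GDNF came to −0.65 (adjusted p = 0.272, limma) with all libraries, beside 19.2% of genes called, 15.6% higher and 3.54% lower. Without calf 3 it came to −1.10 (adjusted p = 0.00552) and met the call, beside 22.3% called, 16.2% higher and 6.1% lower.

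GFRA1, the co-receptor that binds GDNF at the cell surface (ENSBTAG00000019297, chromosome 26, 36435279 to 36696529), measured 1.70, 2.63 and 6.38 FPKM in the calves and 1.12, 0.864 and 1.37 in the bulls. Every bull was below every calf, and calf 3 was 2.95-fold the mean of the other two calves. Bulls differed from calves by −0.98 on the log2 scale (standard error 0.38, adjusted p = 0.0721, limma), short of a call, and without calf 3 by −0.57 (standard error 0.19, adjusted p = 0.0322). Without calf 1 it was −1.30 (adjusted p = 0.0320) and was called. After quantile normalization, GFRA1 was called lower, at −1.78 (adjusted p = 0.00643) and, without calf 3, −1.36 (adjusted p = 0.000451).

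RET, the kinase that signals for GDNF (ENSBTAG00000000570, chromosome 28, 13467070 to 13532937), measured 2.06, 3.31 and 5.02 FPKM in the calves and 1.01, 0.962 and 0.820 in the bulls. The bulls were again below all calves and calf 3 was again highest. RET was called lower in bulls at −1.16 (standard error 0.26, adjusted p = 0.0113, limma). Of the bulls only bull 1 reached 1 FPKM, so RET passed the filter mainly through the calves. Without calf 3 it was −0.91 (standard error 0.18, adjusted p = 0.00434), under the fold change required, and after quantile normalization without calf 3 it was called at −1.63 (adjusted p = 0.000242). In calf 1 and calf 2, the ligand and both receptor subunits therefore had FPKM values between 1.70 and 3.31, and in bulls between 0.494 and 1.37.

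ETV5, a transcription factor of the ETS family induced by GDNF and FGF signals and also made by Sertoli cells (ENSBTAG00000014915, chromosome 1, 81135305 to 81196510), measured 7.54, 8.46 and 8.21 FPKM in the calves and 4.07, 4.60 and 3.98 in the bulls. It was the steadiest of the genes among calves: calf 3 lay between the other two. The difference was −0.80 on the log2 scale (standard error 0.16, adjusted p = 0.00606), or −0.79 without calf 3 (adjusted p = 0.00237), past the p threshold but not far enough from 0 for a call. After quantile normalization it was called at −1.35 (adjusted p = 0.000809).

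ID4, an inhibitor of basic helix-loop-helix factors that marks stem cells among mouse spermatogonia (ENSBTAG00000052562, chromosome 23, 38099867 to 38101537), measured 6.15, 17.0 and 50.2 FPKM in the calves and 13.3, 13.4 and 11.6 in the bulls. The bulls lay between calf 1 and calf 2, and calf 3 was 4.33-fold the mean of those calves. No difference was detected: bulls minus calves came to −0.45 (log2, standard error 0.69, adjusted p = 0.605) with all libraries and, with the sign turned, to 0.27 without calf 3 (standard error 0.37, adjusted p = 0.525).

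ZBTB16, the zinc finger repressor also called PLZF (ENSBTAG00000011266, chromosome 15, 24583310 to 24781391), had the lowest adjusted p of the 8 genes with all libraries. Its FPKM was 14.9, 10.2 and 17.2 in the calves and 2.71, 3.16 and 2.81 in the bulls, with a wide gap between the groups. It was lower in bulls by a log2 difference of −1.93 (standard error 0.23, adjusted p = 0.000669), or −1.78 when calf 3 was left out (standard error 0.19, adjusted p = 0.000249). ZBTB16 was called lower in all 20 alternatives computed for it, between −2.65 and −1.78.

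NANOS2, an RNA-binding protein that represses differentiation of male germ cells (ENSBTAG00000047505, chromosome 18, 53419903 to 53420452), was the lowest of the 10 genes. Calf 1 had 0.901 and calf 2 0.510 FPKM, calf 3 was listed at 0, and the bulls had 0.0556, 0.0542 and 0.0453, so that both of the first calves were above every bull. The mean of calf 1 and calf 2 was 13.6-fold that of the bulls, the largest ratio among the 10 genes, on values with an unknown number of fragments behind them. The exact permutation test over all 6 libraries gave p = 0.4 (two-sided, smallest possible p 0.1). When all genes above 0 in a library were fitted without calf 3, NANOS2 came to −0.69 (adjusted p = 0.0104, limma), under the fold change required.

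NANOS3, the related protein that protects early germ cells (ENSBTAG00000000399, chromosome 7, 11807308 to 11819790), went the other way. Its FPKM was 2.68, 2.78 and 0.760 in the calves and 11.3, 16.4 and 17.3 in the bulls, so every bull was above every calf. Bulls exceeded calves by 2.44 on the log2 scale (standard error 0.36, adjusted p = 0.00182), or by 2.08 when calf 3 was left out (standard error 0.20, adjusted p = 0.000174). NANOS3 was called in 19 of 20 alternatives, with values from 0.995 to 2.96 over all of them. In calf 1 and calf 2, NANOS3 stood at 2.73 ± 0.0686 (SD, n = 2) and NANOS2 at 0.705 ± 0.276 (SD, n = 2), and in bulls at 15.0 ± 3.22 and 0.0517 ± 0.00555 (SD, n = 3).

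LIN28B, an RNA-binding protein that blocks the maturation of let-7 microRNAs (ENSBTAG00000043973, chromosome 9, 44943835 to 45104871), measured 3.57, 4.51 and 0.743 FPKM in the calves and 11.0, 7.18 and 11.0 in the bulls. All bulls were above all calves. The annotated transcript made up at most 3.80% of this value in any library and was lower in the bulls than in calf 1 and calf 2, as given below. Bulls exceeded calves by 1.58 on the log2 scale (standard error 0.47, adjusted p = 0.0302), or by 1.08 when calf 3 was left out (standard error 0.22, adjusted p = 0.00451). The call was lost without bull 1 (1.49, adjusted p = 0.102), without bull 2 (1.77, adjusted p = 0.0578), without bull 3 (1.49, adjusted p = 0.101), after quantile normalization (0.97, adjusted p = 0.0729, and 0.57, adjusted p = 0.0557, also without calf 3), after scaling to a common upper quartile (1.07, adjusted p = 0.118) and with the replicate number as a block (adjusted p = 0.0569).

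UCHL1, a ubiquitin hydrolase that is a marker of spermatogonia in cattle and is abundant in neurons (ENSBTAG00000005078, chromosome 6, 60113753 to 60159287), was the most abundant of the 10 genes in every library. Its FPKM was 25.6, 30.04 and 201 in the calves and 21.3, 20.8 and 21.0 in the bulls, which varied by 0.271 (SD, n = 3) around their mean of 21.0. Calf 3 was 7.21-fold the mean of calf 1 and calf 2. The difference of −1.32 on the log2 scale (standard error 0.78, adjusted p = 0.198) was not called, and without calf 3 it was −0.38 (standard error 0.11, adjusted p = 0.0186), past the p threshold and far under the fold change required. The neuron and glia lists were also highest in calf 3, and their part in the values of UCHL1, ID4, GFRA1, RET and ZBTB16 there was not tested.

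**Figure D3:**
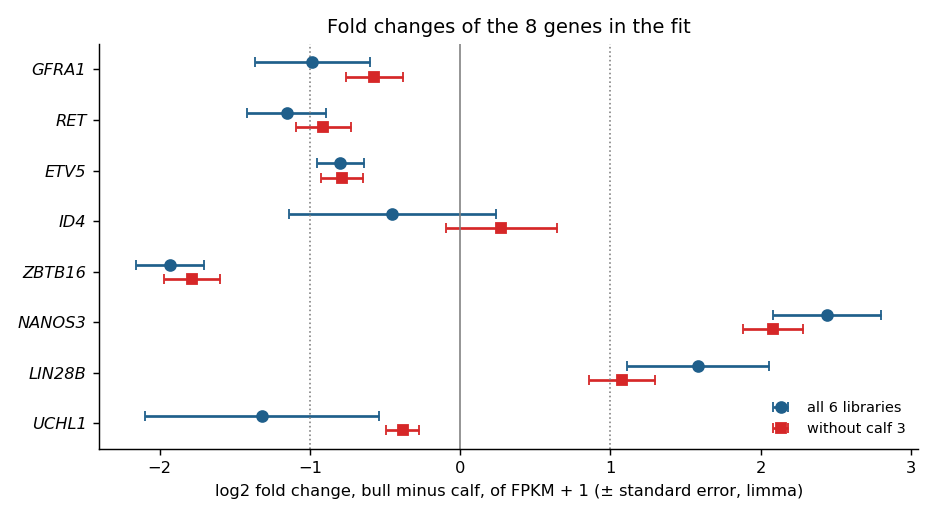
Log2 fold change of FPKM + 1 (bull minus calf, limma) of the 8 genes in the fit, with bars of 1 standard error, for all 6 libraries (blue circles) and without calf 3 (red squares). Dotted lines mark a log2 fold change of 1 in either direction, and ZBTB16, NANOS3 and LIN28B stay beyond them without calf 3.

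The table of transcripts showed what the gene values are made of. It holds 55 entries for the 10 genes, some from the Ensembl annotation and the others assembled from the reads, of which several carry the suffix AS, the usual mark of an antisense transcript (the table gives no strand), or OT, which the sources used here do not explain. ID4, ZBTB16 and NANOS2 consist of 1 Ensembl transcript each, so their gene values are those of the annotated transcript. Of the transcripts in the table, 23212 passed the filter, of which 44.2% were called, 34.8% higher and 9.37% lower in bulls (49.2%, 36.1% and 13.1% without calf 3).

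GFRA1 was made up of Ensembl transcripts alone in calf 1 and calf 2. In bull 1, bull 2 and bull 3, GFRA1-AS1 and GFRA1-AS2, which lie at one end of the locus (chromosome 26, 36435279 to 36466051), contributed 58.7%, 35.2% and 33.0% of the gene value, and in calf 3 0.965%. The Ensembl transcripts alone summed to 1.70, 2.63 and 6.32 in the calves and to 0.462, 0.560 and 0.917 in the bulls. The log2 difference of these sums, bulls minus calves, was −1.35 with all libraries and −0.94 without calf 3. Both values were further from 0 than those of the gene value. A fit was also made of 13737 genes by their Ensembl transcripts. The sum over Ensembl transcripts was below 1 FPKM in every bull for GFRA1 and for RET, so both entered this fit through the calves. A call of either could only be lower, so both are given as levels and differences only.

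RET followed the same pattern on a smaller scale. RET-AS1 was listed at 0 in calf 1 and calf 2 and gave 20.7%, 4.57% and 10.9% of the gene value in bull 1, bull 2 and bull 3. RET-201, the Ensembl transcript, was at 2.06, 3.31 and 4.98 in the calves and 0.801, 0.918 and 0.731 in the bulls. The log2 difference of this transcript was −1.24 with all libraries and −1.00015 without calf 3. ETV5 had small contributions of entries with the suffix AS in bull 1 (4.65%) and bull 2 (5.18%) and none elsewhere.

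For GDNF, the Ensembl transcript GDNF-201 was above every bull in each calf. It was at 1.25 and 0.955 in calf 1 and calf 2 and at 0.256 in calf 3, and was listed at 0 in bull 1 and at 0.0810 and 0.193 in bull 2 and bull 3. The longest assembled transcript (chromosome 20, 36613471 to 36642530) was at 0.728, 1.11 and 0.0851 in the calves and at 0.0723, 0.142 and 0.119 in the bulls, so calf 3 lay among the bulls. A shorter assembled one (36616244 to 36642530) had 0.557, 0.390 and 0.0281 in the calves and 0.422, 0.376 and 0.501 in the bulls, which overlapped, and it made up most of the value in bulls. None of the 3 GDNF transcripts reached the filter.

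Assembled transcripts made up most of the NANOS3 value in bulls. NANOS3-OT1 (chromosome 7, 11807308 to 11809394) was at 0.985, 1.25 and 0 in the calves and at 5.73, 9.95 and 9.83 in the bulls, and was called higher at 2.49 (adjusted p = 0.00247, limma) and at 2.13 (adjusted p = 0.00128) without calf 3. NANOS3-AS1 (11809520 to 11819681) was at or under 0.162 in all calves and at 1.90, 2.27 and 1.79 in the bulls, and is given as a level only, since it entered the fit through the bulls. The Ensembl transcript NANOS3-201 was at 1.56, 1.26 and 0.0618 in the calves and at 2.93, 3.43 and 5.36 in the bulls. It was called higher with all libraries (1.39, adjusted p = 0.0274) but not without calf 3 (0.995, adjusted p = 0.0171), where it came just under the fold change required. In bulls it made up 20.9% to 31.0% of the gene value. The assembled part of the locus also overlaps a pair of entries that carry microRNA symbols but span far more than a microRNA, so their values are not those of the microRNAs. The entry under bta-mir-181c (11811457 to 11819681) was at 0.0149, 0.0431 and 0 in the calves and at 1.92, 1.31 and 1.92 in the bulls. The entry under bta-mir-181d (11811275 to 11819790) was at 0.161, 0.271 and 0.0614 in the calves and at 0, 0.0277 and 0.391 in the bulls, which overlapped.

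In LIN28B the annotated transcript was a small part of the gene value. The locus holds 28 entries, 27 of them assembled from the reads, and the Ensembl transcript LIN28B-201 was at 0.136, 0.134 and 0 in the calves and at 0.0790, 0.0755 and 0.113 in the bulls. It made up 0.715% to 3.80% of the gene value in the 5 libraries where it was above 0, and it was lower, not higher, in the bulls than in calf 1 and calf 2. The summed FPKM of entries with the suffix AS was 0.212 and 0.145 in calf 1 and calf 2, 0 in calf 3 and 2.57, 1.19 and 2.64 in the bulls, and no test was run on this sum. The only LIN28B entry that passed the filter, an assembled transcript (chromosome 9, 44943835 to 45086608), was at 0.977, 1.86 and 0 in the calves and 1.17, 1.38 and 1.44 in the bulls and was not called (0.38, adjusted p = 0.434, and −0.03, adjusted p = 0.899, without calf 3). A separate assembled gene that overlaps the end of the locus (45086077 to 45104983) was at 1.08, 1.45 and 0.185 in the calves and 23.7, 17.2 and 17.9 in the bulls, and was called higher at 3.49 (adjusted p = 0.000245) and at 3.18 without calf 3. How fragments were shared between such overlapping entries is not given in the sources used here, so the LIN28B gene value is uncertain. This assembled gene was singled out after its values were seen, as were the entries with microRNA symbols.

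UCHL1 came almost wholly from 5 overlapping Ensembl transcripts, 1 of them listed at 0 throughout, whose shares varied between animals of 1 group. The one at 60147577 to 60159269 was at 10.5 in bull 1 and at 0.0647 and 0.799 in bull 2 and bull 3, although the summed UCHL1 level of the bulls was nearly constant. In calf 3, UCHL1-201 alone was at 188. None of the 4 UCHL1 transcripts tested was called, and levels of single UCHL1 transcripts are uncertain because these transcripts span nearly the same stretch of the genome.

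**Figure D4:**
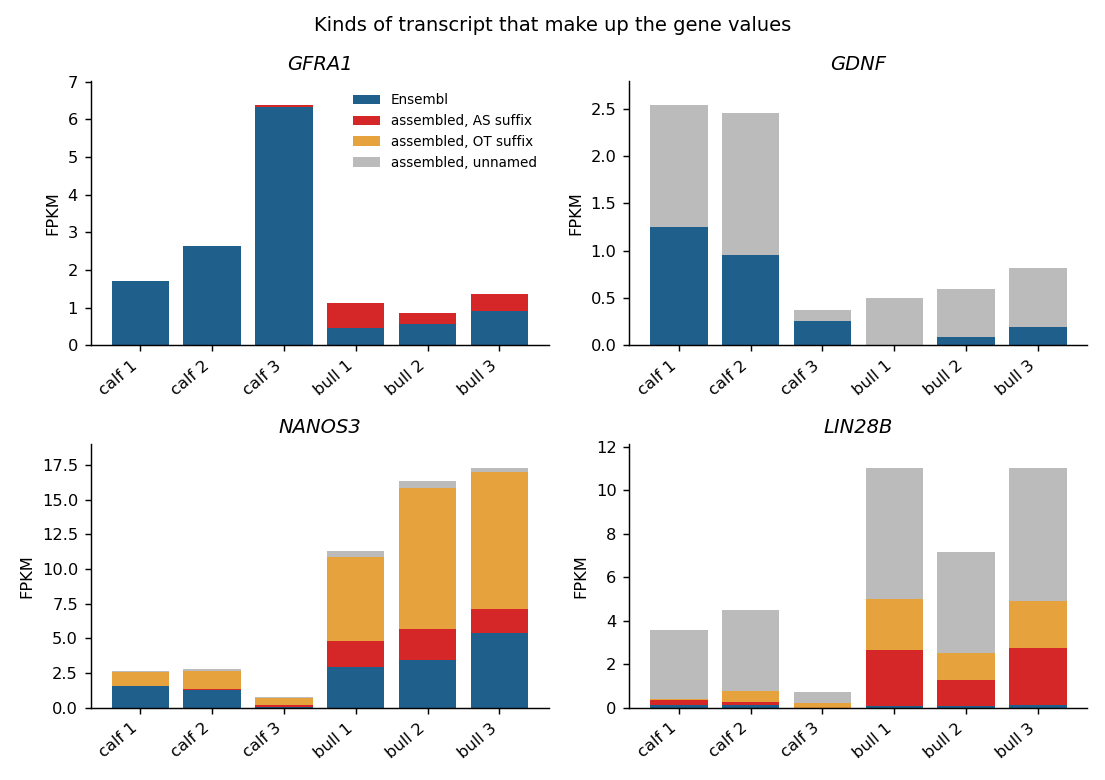
FPKM of GFRA1, GDNF, NANOS3 and LIN28B in each library, stacked by kind of transcript (Ensembl, and assembled from the reads with the suffix AS, the suffix OT or no name). Entries other than Ensembl ones make up a large share of GFRA1 in bulls, most of NANOS3 in bulls and nearly all of LIN28B in every library.

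Counted by Ensembl transcripts only, ZBTB16 was called lower and NANOS3 higher with all libraries. Without calf 3, ZBTB16 was called lower and NANOS3 was not called. In these fits 37.3% of genes were called, 25.6% higher and 11.7% lower, and without calf 3 45.2%, 27.8% and 17.4%. GFRA1 and RET entered these fits through the calves, so a call of them could only be lower, and they are left out of the calls named here. LIN28B, GDNF and NANOS2 were below the filter there.

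Sertoli cells are a known source of GDNF. Each gene was therefore also expressed as a log2 ratio to the geometric mean of 10 Sertoli cell genes, which was 34.04 and 54.8 FPKM in calf 1 and calf 2 and 13.7, 14.9 and 14.8 in the bulls. This ratio does not depend on the scaling of a library, and it is a description without a test. The 10 genes include CLDN11 and CLU, which are not specific to Sertoli cells. CLDN11 was at 0.940 in calf 1, 18.2 in calf 2 and 62.8, 84.0 and 73.3 in the bulls. Of the 10 Sertoli genes, 8 were called lower and 2 higher in bulls without calf 3, so the denominator itself differed between the groups. Among all genes tested without calf 3, 13.6% were called lower and 37.9% higher. Relative to these genes, the groups did not overlap for 85.9% of all genes tested, with bulls above for 80.9% and below for 4.98%, so a higher ratio in bulls was the rule. On this scale GDNF was at −3.74 and −4.48 in calf 1 and calf 2 and at −4.79, −4.63 and −4.19 in the bulls, so the groups overlapped. The GDNF FPKM of these calves was 2.54 and 2.46, so their ratios differed mostly through the denominator. RET overlapped as well, with −4.05 in calf 1 and calf 2 and −3.76, −3.95 and −4.18 in the bulls. ZBTB16 was at −1.19 and −2.42 in calf 1 and calf 2 and between −2.40 and −2.24 in the bulls, and overlapped.

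NANOS2 stayed lower in bulls relative to the Sertoli genes, with −5.24 and −6.75 in calf 1 and calf 2 and −7.94, −8.10 and −8.36 in the bulls. ETV5, ID4, UCHL1, NANOS3 and LIN28B were all higher in every bull than in calf 1 and calf 2 on this scale, by 0.66, 1.89, 1.18, 4.01 and 2.83 on average. By Ensembl transcripts alone, these differences were 0.61 for ETV5, 1.89 for ID4, 1.17 for UCHL1, 3.01 for NANOS3 and 0.96 for LIN28B, and RET turned from 0.09 to −0.10, with overlap both ways. GFRA1 was higher in bulls by 0.63 as a gene value, without overlap, but lower by 0.19 (bull minus calf, −0.19), with overlap, when its Ensembl transcripts alone were used.

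**Figure D5:**
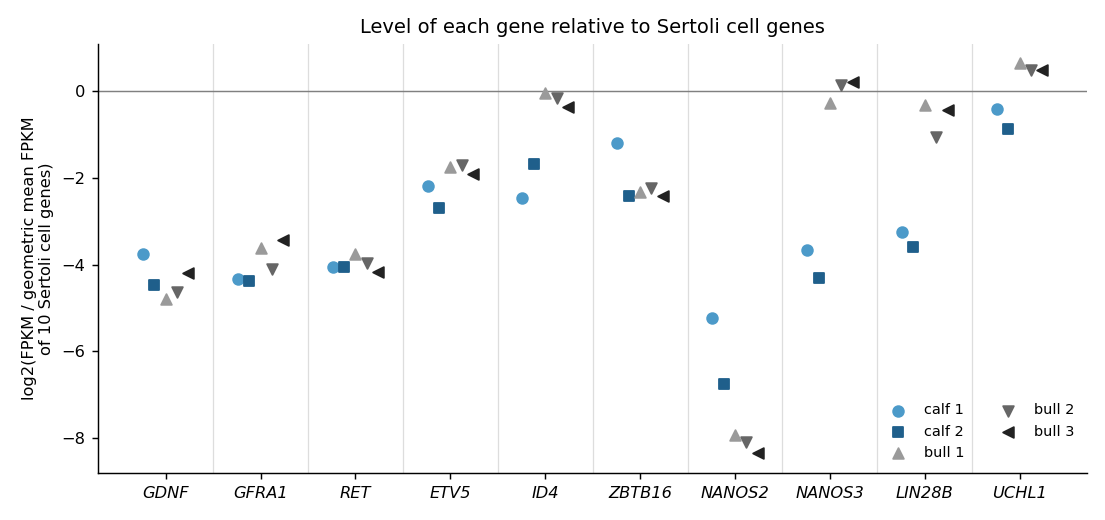
Log2 ratio of each gene's FPKM to the geometric mean FPKM of 10 Sertoli cell genes in calf 1, calf 2 and the 3 bulls (calf 3 is left out because WT1, GATA4 and FSHR were listed at 0 in it). GDNF, RET and ZBTB16 overlap between the groups, NANOS2 is lower in bulls, and the other genes are higher in bulls.

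Other genes around GDNF signalling were described from lists chosen by function. Among all genes tested, 35.7% were called higher and 9.61% lower, or 37.9% and 13.6% without calf 3. Counts of calls here and below stand beside these shares. Of 9 GDNF family ligands and receptors, 5 were tested, none was called higher and NCAM1 was called lower, with a median log2 fold change of −0.67 (−0.90 without calf 3) beside 0.43 over all genes. NCAM1, an alternative receptor for GDNF, had an FPKM of 8.90, 19.2 and 60.6 in the calves and of 4.06, 4.48 and 4.13 in the bulls (−2.15, adjusted p = 0.0310, and −1.44, adjusted p = 0.00492, without calf 3). SDC3, a heparan sulphate proteoglycan that binds GDNF, was at 3.64, 3.63 and 31.4 in the calves and at 0.930, 1.08 and 1.06 in the bulls, and was called only without calf 3 (−1.20, adjusted p = 0.000297, against −2.13, adjusted p = 0.0596). GFRA2, the co-receptor for neurturin, was at 3.74, 3.17 and 1.78 in the calves and at 1.70, 1.37 and 1.14 in the bulls and was not called (−0.67, adjusted p = 0.0583, and −0.90, adjusted p = 0.00285, without calf 3). NRTN, which encodes neurturin, had 8.38, 9.22 and 2.26 in the calves and 4.78, 5.92 and 5.20 in the bulls (−0.11, adjusted p = 0.853, and −0.64, adjusted p = 0.00645, without calf 3). GFRA3, with values between 0.865 and 1.35 outside calf 3, was not called (0.51, adjusted p = 0.158).

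Of 12 adaptors and signalling proteins downstream of RET, 11 were tested, 3 were called lower and none higher, with a median of −0.86 (−0.87 without calf 3). The shares of all genes were 9.61% lower and 35.7% higher. GAB2, a docking protein, had an FPKM of 17.2, 15.7 and 14.1 in the calves and of 3.78, 3.33 and 4.49 in the bulls (−1.78, adjusted p = 0.000318). FRS2 and DOK5, adaptors of receptor tyrosine kinases, were called at −1.14 (adjusted p = 0.00411) and −1.31 (adjusted p = 0.0328). Without calf 3, 4 were called lower (GAB2, GRB10, SHC1 and DOK5), and FRS2 came to −0.98.

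Of 9 genes that GDNF regulates in cultured rodent spermatogonia, only 4 were tested, of which 2 were called higher. LHX1 was at 0.467, 0.441 and 0.304 in the calves and at 4.42, 4.73 and 4.98 in the bulls. LHX1 entered the fit through the bulls, so its call could only be higher, and it is given as a level only. BCL6B, a transcriptional repressor, was at 1.80, 0.803 and 0.499 in the calves and at 2.48, 4.32 and 4.13 in the bulls (1.22, adjusted p = 0.0150, and 1.02 without calf 3). ETV4 and CXCR4 were not called, and the median of the 4 tested was 0.73 (0.32 without calf 3). Of the 5 genes below the filter, some lay the other way: EOMES was at 1.74, 2.41 and 0.0304 in the calves and at 0.417, 0.229 and 0.177 in the bulls, and EGR2 at 0.698, 0.925 and 0.0368 against 0.178, 0.121 and 0.231, so bulls were below calf 1 and calf 2 and above calf 3 for both. POU3F1 was at 0.254, 0.653 and 1.85 in the calves and at 0.186, 0.253 and 0.168 in the bulls, below every calf.

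Among 10 paralogs of the genes, 9 were tested, 2 were called higher and 2 lower, with and without calf 3, with a median of 0.13 (0.12 without calf 3). All genes had shares of 35.7% higher and 9.61% lower. The ID family differed within itself: ID3 fell from 25.3, 11.3 and 23.4 in the calves to 2.48, 2.04 and 1.85 in the bulls (−2.68, adjusted p = 0.000806) and ID2 was called lower as well (−2.02, adjusted p = 0.0112), whereas ID1 (−0.73, adjusted p = 0.0329) and ID4 were not called. UCHL3, another ubiquitin hydrolase, was at 8.78, 11.3 and 16.4 in the calves and at 27.5, 29.0 and 25.4 in the bulls (1.14, adjusted p = 0.00776, and 1.37 without calf 3), and UCHL5 was not called (0.13, adjusted p = 0.559). ZBTB32, a relative of ZBTB16, was at 0.649, 0.432 and 0.454 in the calves and at 16.5, 16.9 and 18.0 in the bulls. ZBTB32 entered the fit through the bulls, so its call could only be higher. ZBTB7A was not called (−1.19, adjusted p = 0.0721). ETV1 (0.23, adjusted p = 0.276) and NANOS1 (0.33, adjusted p = 0.304) were not called either. LIN28A was too low to be tested, with 0.444 and 0.429 in calf 1 and calf 2, 0.0356 in bull 3 and 0 in the other libraries.

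Of 18 other genes of undifferentiated spermatogonia, 17 were found in the table and 13 tested, with 4 called lower and 2 higher and a median of −1.003. The shares of all genes were 9.61% lower and 35.7% higher. ITGA6, an integrin used to sort these cells, was at 55.2, 24.8 and 14.1 in the calves and at 4.22, 5.73 and 5.11 in the bulls (−2.22, adjusted p = 0.00869). TSPAN33 (−2.10, adjusted p = 0.00164) was called lower too, as were FOXO1 and FGFR3. FGFR3 entered the fit through the calves, so its call could only be lower. EPCAM (4.34, adjusted p = 0.000138) and TSPAN8 were called higher. TSPAN8 was at 0.0824 or less in the calves and at 14.5, 22.4 and 21.3 in the bulls, so its call could only be higher. Without calf 3, 8 were called lower and 2 higher, with a median of −1.24. Among those added were PIWIL4, a piRNA pathway protein (10.5 and 10.7 in calf 1 and calf 2, 0.134 in calf 3 and 1.09 to 1.17 in the bulls, −2.45 without calf 3), and DND1, a partner of NANOS proteins (17.5, 19.7 and 0.429 in the calves and 4.55, 3.34 and 3.62 in the bulls, −2.02 without calf 3). Both were named after their values were seen.

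All 8 partners of the NANOS and LIN28 proteins were tested, and CNOT1, the scaffold of the deadenylase recruited by NANOS proteins, was called higher, from 21.2, 24.5 and 15.2 in the calves to 113, 102 and 105 in the bulls (2.36, adjusted p = 0.000201, and 2.18 without calf 3). The other 7 were not called, and the median was −0.34 (−0.23 without calf 3). Of the 3 E proteins that ID4 can bind, TCF4 was called lower (−1.22, adjusted p = 0.00241, and −1.06 without calf 3), and TCF3 and TCF12 were not called, with a median of −1.22 (−0.74 without calf 3). Of 6 genes of differentiating spermatogonia, 4 were found in the table and 3 tested. STRA8, induced by retinoic acid before meiosis, was at 1.64, 2.28 and 0.290 in the calves and at 19.1, 15.7 and 16.5 in the bulls (3.01, adjusted p = 0.000830), and DMRTB1 was called higher at 2.61 (adjusted p = 0.00109). KIT, the receptor that appears as spermatogonia differentiate, was at 16.5, 13.6 and 8.90 in the calves and at 6.37, 5.06 and 7.03 in the bulls, and was called lower only without calf 3 (−1.17, adjusted p = 0.00107, against −0.94, adjusted p = 0.0234). The median of this list was 2.61 (2.24 without calf 3).

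Marker lists of cell types moved beside these genes. Their counts of calls stand beside 35.7% higher and 9.61% lower among all genes tested, or 37.9% and 13.6% without calf 3. Germ cell genes of all stages summed to 59.3 and 72.3 FPKM in calf 1 and calf 2, 0.302 in calf 3 and 432 to 435 in the bulls, with 3 of 4 called higher, and 4 without calf 3. Of 6 spermatocyte genes 5 were called higher (4 without calf 3), and all 6 spermatid genes were. The spermatid genes and the spermatocyte gene SPO11 were below 1 FPKM in every calf and entered the fit through the bulls. A call of these could therefore only be higher. The summed FPKM of the spermatid genes was at most 1.54 in the calves and between 13285 and 15233 in the bulls. Of 10 Sertoli cell genes, 1 was called higher and 1 lower with all libraries, and 2 were called higher and 8 lower without calf 3. None of the 8 Leydig cell entries was called, whose sums were 1465 to 2738 in the bulls. Of 5 peritubular myoid cell genes 2 were called higher, none of 4 endothelial genes was called, and of 3 macrophage genes tested 1 was called higher and 1 lower. Without calf 3, 2 myoid genes were called higher and 1 lower, and the calls of the endothelial and macrophage lists did not change in number. None of the neuron and glia genes tested was called with all libraries, and without calf 3 1 of 4 neuron genes was called lower and 3 of 4 glia genes higher. The part of these shifts in cell type in the values of the 10 genes was not tested.

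For each of the 8 genes in the fit, the gene with the most similar pattern was found by the Pearson correlation of log2(FPKM + 1) over the 6 libraries, a description over few libraries that share groups and the contrast of calf 3. These were WNK2 for GFRA1 (r = 0.998), LZTS2 for RET (0.998), DMTF1 for ETV5 (0.9997), VMA21 for ID4 (0.989), RF02216, an entry named after an RNA family, for ZBTB16 (0.999), COG1 for NANOS3 (0.999), ADPRHL2 for LIN28B (0.997) and RTN3 for UCHL1 (0.999). Such values were common: 18.1% of the genes tested correlated above 0.95 with NANOS3, 3.55% to 5.01% with GFRA1, RET, ETV5, ZBTB16, UCHL1 and LIN28B, and 0.409% with ID4.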

How the data were processed

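The labels give 3 calves and 3 bulls, and table columns were matched to samples by title. According to the Methods, ribosomal reads were removed with Bowtie2, TopHat2 was used for mapping and StringTie for assembly. The authors deposited FPKM values per gene and transcript, made by a tool not given in the sources used here. Their sums over genes ran from 587066 (calf 3) to 1098715 (calf 2), so they were not rescaled to a common total, and the fragments behind single values are not known from the tables, and the study's read totals were not used here. The Methods name UMD3.1.1, but 99.4% of 16434 symbols, all 10 genes included, overlapped the RefSeq locus of that symbol in ARS-UCD2.0, so positions are taken as those of an ARS-UCD assembly.

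The scale was log2(FPKM + 1). Features that reached 1 FPKM in 3 of all 6 libraries entered a limma 3.58.1 fit in R 4.3.3 (empirical Bayes with a trend, two-sided, Benjamini-Hochberg), a procedure tested on simulated data. The simulated mean levels lay above those of low genes such as GFRA1 and RET, and no simulated library stood apart as calf 3 did. The simulation therefore does not cover these cases. Alternatives changed the pseudocount, filter, scaling, weights, trend, block and libraries. Sums over Ensembl transcripts, and the other fits that combine a setting with the removal of calf 3, were added after the data were seen. The genes, lists and tests were chosen with earlier results of these data known. Genes named were all 10, all tested GDNF family members and paralogs, up to 3 called genes per direction of each other pathway list with the largest change, and the gene most alike to each. FOXO1, LIN28A, ETV4, CXCR4, EOMES, EGR2, POU3F1, GRB10, SHC1, PIWIL4, DND1, KIT, TCF3, TCF12 and SPO11 fall outside this and were named after their values were seen. So were the marker genes WT1, GATA4, FSHR, SOX9, INHBB, CLDN11, CLU and DAZL. UTF1, SOHLH1 and SOHLH2 had no match. Figures used matplotlib 3.10.9. Circular RNA and sequences were not analysed here.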

Additional observations from a re-analysis of the deposited data

How the results depend on the processing

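The number of genes called, 8215 with all libraries, lay between 7318 and 9325 when 1 library was left out and fell to 5124 of 13737 tested when genes were summed over Ensembl transcripts only, an alternative that tests fewer genes. For transcripts the range was 9039 to 11429 around 10255. The share of calls that were higher in bulls was 78.8% as deposited, 45.8% after quantile normalization, 57.8% after scaling to a common upper quartile, 86.3% after rescaling to a common total and 68.5% by Ensembl transcripts. Of the 10 genes, 4 were called, and 3 to 5 when 1 library was left out with nothing else changed. With calf 3 left out and a further setting changed, the number was 2 by Ensembl transcripts and 6 after quantile normalization. The 2 were ZBTB16 and RET, and a call of RET by Ensembl transcripts could only be lower. RET lost its call without calf 3, with array weights (−0.92) and after rescaling to a common total (adjusted p = 0.0814). ETV5 and GFRA1 gained a call under quantile and upper quartile scaling. ID4 lay between −1.15 (without calf 1) and 0.27 (without calf 3) when 1 library was left out, was 0.26 with array weights, both of the latter reversed in sign, and was not called in any of 20 alternatives. GDNF lay between −1.10 and −0.42 and NANOS2 between −0.69 and −0.22 when 1 library was left out, both below 0 throughout, and GDNF met the call at −1.10 in the fit of all genes above 0 without calf 3. By the sign of the group means alone, 3 of the 10 genes were lower in bulls relative to the Sertoli genes (GDNF and ZBTB16 with overlap), and 2 to 4 when 1 library was left out.

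With the replicate number of the labels as a block, 8128 genes, 10087 transcripts and 3 of the 10 genes were called, and LIN28B lost its call (adjusted p = 0.0569). The numbers do not pair the animals by the labels. Deviations from the group means correlated at 0.0277, 0.0246 and 0.0341 for the numbers 1, 2 and 3. Each library correlated best with its own number, but all these values are near 0 and calf 1 with bull 2 reached 0.0221. Pairing cannot be read from them. The cause of these changes was not tested. Leaving out a library leaves 2 animals in 1 group, and the tables do not give the fragments behind single values, so low genes such as NANOS2 and GDNF are the least certain.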
